A study of Mus musculus with 9 samples.

Results

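The S100 genes followed here are S100a8, S100a9, S100a6, S100a4, S100a10 and S100a11, chosen by name as 6 of the 23499 genes of the blood table. The table holds Seq-Well single-cell RNA sequencing of blood from female 129SvE mice, sequenced from the polyA end. The groups are 5 mice labelled sick with rheumatoid arthritis, called arthritic here (mice 1, 3, 4, 5 and 6), and 4 healthy mice (mice 1 to 4). The arthritic mice have a disease stage of 1.5 in mice 1 and 4, 2 in mouse 3, 1.5 to 2 in mouse 5 and 2 to 2.5 in mouse 6, and the healthy mice have a stage of 0. All carry both PBMC and blood as tissue, the sources used here give neither age nor the way arthritis was induced, and nothing says whether a library holds 1 animal or pooled animals. Each column of the table is 1 barcode, and its name carries a cell class. Of the classes, 6 held enough columns to describe: granulocyte, common myeloid progenitor, myeloid dendritic, foxP3 T, CD4 T and B. A second table gives joint columns of the same model from an earlier deposit, which were treated as 1 pool.

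S100 proteins are small calcium-binding proteins of the EF-hand family that mostly work as dimers. S100a8 and S100a9 form calprotectin, the most abundant cytosolic protein of neutrophils, which binds zinc and manganese and, once released, acts as an alarmin that activates TLR4. Calprotectin in blood and synovial fluid is a known marker of inflammatory arthritis. S100a4 and S100a6 are linked to cell motility and growth, S100a10 holds annexin A2 in a complex at the plasma membrane, and S100a11 binds annexin A1.

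All 6 genes lie on mouse chromosome 3 (GENCODE M21 annotation of GRCm38). S100a4 (ENSMUSG00000001020.8) is at chr3:90603771-90606045 and S100a6 (ENSMUSG00000001025.8) at chr3:90612882-90624181, both on the plus strand. S100a8 (ENSMUSG00000056054.9) is at chr3:90668978-90670035 on the plus strand, and S100a9 (ENSMUSG00000056071.12) at chr3:90692632-90695721 on the minus strand, 22596 bases further on. S100a11 (ENSMUSG00000027907.4) at chr3:93520488-93526287 and S100a10 (ENSMUSG00000041959.14) at chr3:93555080-93564643 are both on the plus strand and are 28792 bases apart. The annotation also lists a processed pseudogene of S100a11 on chromosome 12, so reads of S100a11 could be split with a near-identical copy and its values are less certain. The promoters of S100a8 and S100a9 are shown because these genes kept nearly 1 ratio across mice, and that of S100a11 because it followed them only in part. The sequences are the 250 bases before the RefSeq start (GRCm38.p6), at chr3:90668821-90669070 (plus strand), chr3:90695722-90695971 (minus strand) and chr3:93520246-93520495 (plus strand), written 5′ to 3′ on the gene's strand. Capitals mark TATAAA (gene strand), TTNNGNAA, letters of a C/EBP motif (both strands), and GGGCGG, a GC box (both strands), and no marked match overlaps another.
S100a8 promoter: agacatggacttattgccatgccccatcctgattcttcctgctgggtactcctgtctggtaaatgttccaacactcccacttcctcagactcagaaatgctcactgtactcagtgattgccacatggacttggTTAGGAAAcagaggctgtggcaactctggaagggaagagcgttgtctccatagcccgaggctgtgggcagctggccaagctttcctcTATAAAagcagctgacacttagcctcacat
S100a9 promoter: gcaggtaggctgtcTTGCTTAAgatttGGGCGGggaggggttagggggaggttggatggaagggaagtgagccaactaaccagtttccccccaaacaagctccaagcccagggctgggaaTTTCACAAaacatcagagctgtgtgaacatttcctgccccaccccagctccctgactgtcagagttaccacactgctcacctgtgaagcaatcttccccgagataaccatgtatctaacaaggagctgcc
S100a11 promoter: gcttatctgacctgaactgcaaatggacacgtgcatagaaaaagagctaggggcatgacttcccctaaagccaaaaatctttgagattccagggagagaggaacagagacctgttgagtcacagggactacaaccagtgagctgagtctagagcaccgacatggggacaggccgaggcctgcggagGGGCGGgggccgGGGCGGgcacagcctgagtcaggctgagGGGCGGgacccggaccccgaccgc
TATAAA begins 30 bases before the start of S100a8. In S100a9 these letters begin at the annotated start itself, just past the printed window. S100a4 also has them, 31 bases before its start, while S100a6 and S100a11 have none in this window, and S100a10 has no entry in the promoter table. TATAAA is present in 7.59% of the 32851 promoters of the table. TTNNGNAA has 1 match in S100a8, beginning 117 bases before the start, and 2 in S100a9, at 236 and 130 bases, and is present in 36.8% of all promoters. GGGCGG has 3 matches in S100a11, 1 in S100a9 and none in the other 3 members in the table, and is present in 32.7% of all promoters. GC content is 50.8% in S100a8, 53.6% in S100a9 and 60% in S100a11, against a median of 52.4% over all promoters. Of the other letters searched on both strands, GAGGAAG (PU.1) has 1 match, in S100a8 (10.6% of all promoters), CCAAT has 1, in S100a6 (33.8%), and TTGCGCAA (0.164%) and TTCNNNGAA (7.02%) have none in the 5 members. These matches describe letters and not bound sites.

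The deposited values are whole-number sums per gene and column, in the unit called signal here. Column totals ran between 6052 and 51601, and totals per mouse between 8350920 and 13557201 in arthritic mice against 330950 and 2053973 in healthy mice. The 4310 columns included 4008 from arthritic mice and 302 from healthy mice. Of all blood columns, 1313 had an identical twin in the blood table, which for 59 healthy columns belonged to an arthritic mouse, and 704 blood columns, 27 of them healthy, had one in the joint table. Columns were therefore never counted as independent cells, and groups were compared over mice. This does not remove columns shared between mice. In healthy mice 1 to 4, 7 of 30, 28 of 201, 7 of 26 and 25 of 45 columns were identical to one of another mouse. In arthritic mice 1, 3, 4, 5 and 6 these numbered 188, 194, 114, 79 and 92. The mice are thus not fully independent, although each p-value takes them as independent. Nothing says that the mice were handled in separate batches. Granulocyte columns numbered 489, 323, 360, 435 and 249 in arthritic mice 1, 3, 4, 5 and 6, and 13, 5, 11 and 20 in healthy mice 1 to 4. Among the 49 healthy granulocyte columns, 9 had their identical twin in an arthritic mouse. Part of each healthy granulocyte level below may therefore repeat arthritic values. Their label was checked on 10 neutrophil markers, whose summed level was 36795 signal per 1000000 over all granulocyte columns, against 127 to 1426 in the other 5 classes. That value rests on 1856 arthritic and 49 healthy columns. In healthy mice 1, 3 and 4 the markers summed to only 2446 to 3414, and in healthy mouse 1 the monocyte markers (3962) exceeded the neutrophil markers (2690), so the label is less firm in healthy columns. The preparation of mononuclear cells that PBMC stands for usually leaves granulocytes out. Myeloid dendritic columns carried more of the monocyte markers (4722) than of the dendritic markers (2942), and foxP3 T columns carried 366409 of erythroid genes and 1262 of T cell genes, against 2825 of T cell genes in CD4 T columns. B columns carried 9456 of plasma cell markers and 2065 of B cell markers. Each level below is signal per 1000000 (SPM), either as the plain share of the columns' own signal (plain) or scaled over mice by the trimmed mean of M-values (TMM-scaled). No value is divided by transcript length, so levels are compared between mice and classes and not between genes.

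Of the 6 S100 genes, S100a8 and S100a9, the 2 chains of calprotectin, had the widest gap between the groups over all blood columns. For both, every arthritic mouse lay above every healthy mouse. TMM-scaled S100a8 was 70761, 50460, 39793, 78306 and 9305 in arthritic mice 1, 3, 4, 5 and 6, and 4499, 2495, 7242 and 7645 in healthy mice 1 to 4. Arthritic mouse 6, of the highest disease stage, was the lowest arthritic mouse and close to healthy mouse 4. TMM-scaled S100a9 was 30405, 20659, 16642, 31776 and 3803 in the arthritic mice, and 1714, 1014, 3408 and 3126 in the healthy mice. The order of mice was nearly that of S100a8, again with arthritic mouse 6 next to the healthy mice. S100a8 averaged 49725 ± 27351 in arthritic and 5470 ± 2426 in healthy mice (SD, n = 5 and 4), which is 3.00 ± 0.61 (SE) higher on the log2 scale. For S100a9 the log2 difference was also 3.00 ± 0.61. Both missed the threshold in limma with Benjamini-Hochberg adjustment over 8459 genes (adjusted p = 0.0992 for each). Of all genes tested, 3.64% had every arthritic mouse above every healthy mouse, as 2 of the 6 members did, and 0.0473% (4 genes, no member among them, with 0.0118% of genes higher in arthritic mice) passed an adjusted p of 0.05. At an unadjusted p under 0.05 stood 3 of the 6 members, against 13.4% of genes. Without arthritic mouse 6 both passed, with an adjusted p of 0.00529 for S100a8 and 0.00506 for S100a9, and both also passed with hemoglobin as a covariate (0.01499 each). Arthritic mouse 6 lay nearest the healthy mice, so leaving it out widens the gap and is no separate support. S100a8 and S100a9 each missed the threshold under 23 of 27 alternatives, with a highest adjusted p of 0.340 (limma). Of the other members over all columns, TMM-scaled S100a6 was 313, 234, 411, 588 and 259 in the arthritic mice and 298, 73.5, 219 and 274 in the healthy mice, with overlap (log2 difference 0.83 ± 0.41; limma, adjusted p = 0.394). S100a4 (0.17 ± 0.38; adjusted p = 0.837) and S100a10 (−0.30 ± 0.21; adjusted p = 0.487) overlapped as well, and the sign of S100a4 turned under 4 alternatives. Sums over all columns mix the share of columns of a class with the level per column, and in these sums alone fewer cells of a type and less RNA per cell cannot be told apart.

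Together S100a8 and S100a9 made up 12.5%, 9.44%, 4.94%, 6.13% and 1.78% of all signal in arthritic mice 1, 3, 4, 5 and 6, and 0.788%, 0.444%, 0.764% and 0.861% in healthy mice 1 to 4. Granulocyte columns carried most of it: they held between 86.7% and 99.0% of the S100a8 signal in arthritic mice and between 58.5% and 84.4% in healthy mice. Of the signal of all genes, these columns held between 29.6% and 88.9% in arthritic mice and between 2.92% and 53.8% in healthy mice. The share of columns that were granulocytes averaged 49.8% ± 22.2 in arthritic mice and 33.1% ± 20.5 in healthy mice (SD, n = 5 and 4). With that share as a covariate the log2 difference of S100a8 over all columns was 2.45 (limma, adjusted p = 0.121).

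**Figure D1:**
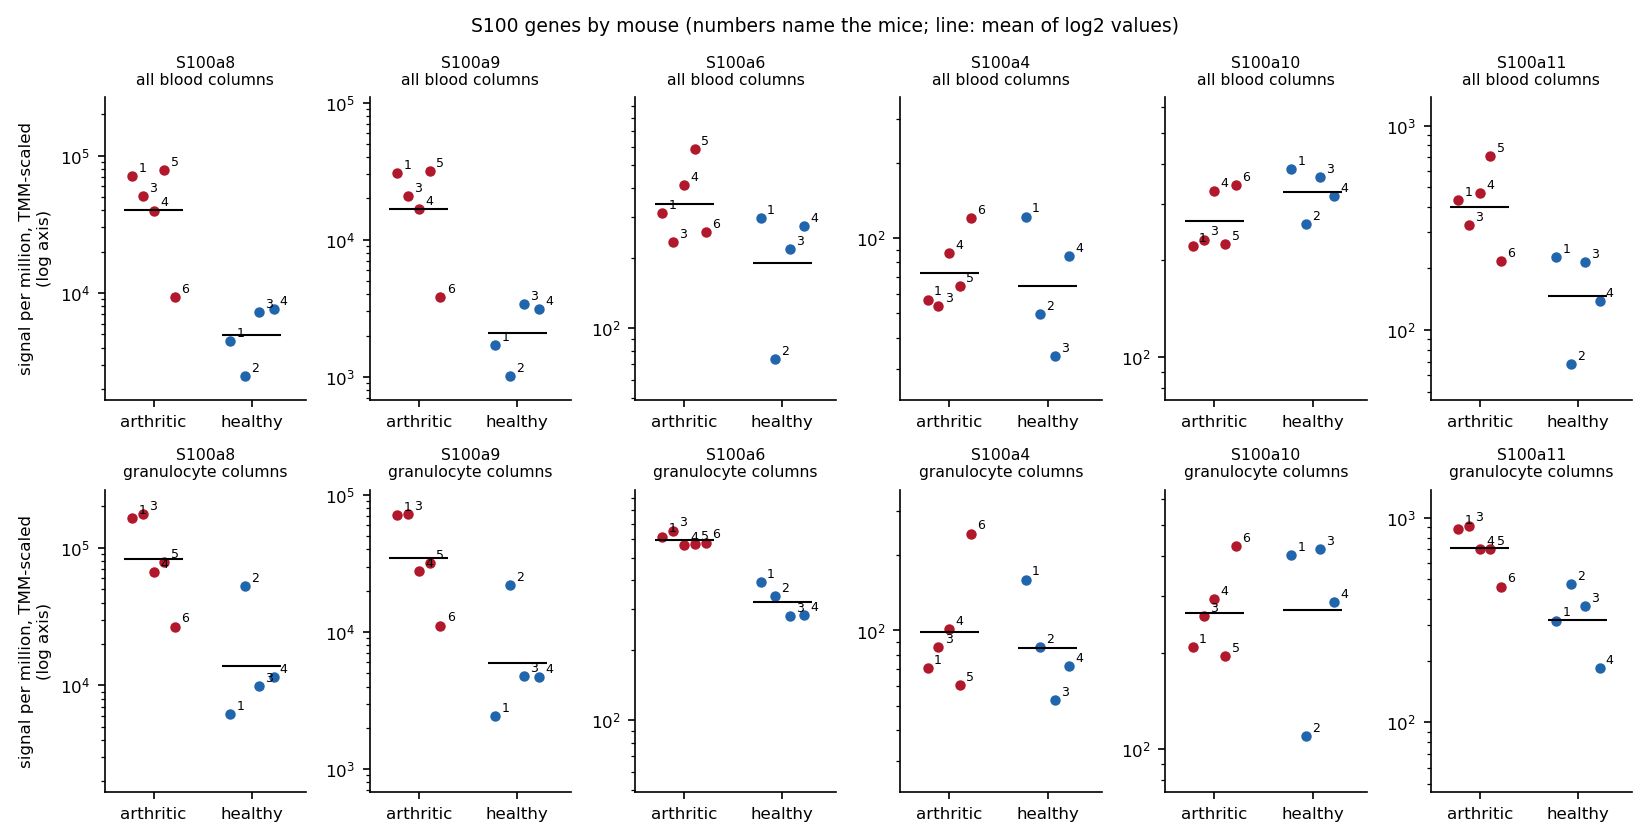
TMM-scaled SPM (log axis) of the 6 S100 genes in all blood columns (top) and in granulocyte columns (bottom), 1 point per mouse with its number, arthritic on the left and healthy on the right of each panel, and a line at the mean of the log2 values. Over all columns S100a8 and S100a9 separate the groups, in granulocyte columns healthy mouse 2 lies among the arthritic mice for both, and S100a6 separates the groups.

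Within granulocyte columns, S100a8 and S100a9 kept a large difference but the groups overlapped. TMM-scaled S100a8 was 163808, 176598, 66262, 78344 and 26728 in arthritic mice 1, 3, 4, 5 and 6, and 6184, 52596, 9874 and 11530 in healthy mice 1 to 4. Healthy mouse 2, with 5 granulocyte columns, lay above arthritic mouse 6, and the other 3 healthy mice lay below every arthritic mouse. In plain values S100a8 of healthy mouse 2 (71794) lay above arthritic mice 4, 5 and 6 (59591, 48558 and 36908). TMM-scaled S100a9 was 70676, 72699, 27837, 31857 and 11121 in the arthritic mice, and 2444, 22116, 4774 and 4706 in the healthy mice, with the same overlap. Plain S100a9 of healthy mouse 2 (30188) also lay above arthritic mice 4, 5 and 6 (25035, 19745 and 15357). The log2 differences were 2.59 ± 0.89 for S100a8 and 2.56 ± 0.76 for S100a9 (SE; limma, adjusted p = 0.147 and 0.116 over 7935 genes). The median of all genes tested was 0.53 in these columns, so relative to it S100a8 stood at 2.06 and S100a9 at 2.03. Without healthy mouse 2 both passed (limma, adjusted p = 0.0161 and 0.0121), and the number of genes called over all genes was then 883 against 52. Healthy mouse 2 was the highest healthy mouse for both, so leaving it out widens the gap and is no separate support. S100a8 missed the threshold under 21 of 26 alternatives and S100a9 under 19 of 26. Without the granulocyte columns that the joint table shares, which leaves 5 arthritic and 3 healthy mice, S100a8 stood at 3.30 and S100a9 at 3.29 (limma, adjusted p = 0.0592 and 0.0250). Healthy mouse 2 holds only the minimum of 5 columns, so this fit may lack that mouse too and is no separate check. The 10 neutrophil markers moved with the pair: their summed plain level in granulocyte columns was 65578, 64582, 22595, 17519 and 11776 in arthritic mice 1, 3, 4, 5 and 6, and 2690, 28288, 2446 and 3414 in healthy mice 1 to 4. Healthy mouse 2 was the highest healthy mouse for these markers too, and none of the 10 was at 0 in an arthritic mouse. Hemoglobin genes took 0.704%, 0.715%, 34.0%, 51.6% and 7.21% of granulocyte signal in the arthritic mice and 22.3%, 22.4%, 53.7% and 43.2% in the healthy mice. With hemoglobin as a covariate the log2 difference of S100a8 in these columns was 2.31 (limma, adjusted p = 0.261). The part of the neutrophil markers was not tested.

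S100a6, which is linked to cell growth and motility, was the only member that passed the threshold, and it did so in granulocyte columns alone. TMM-scaled S100a6 was 616, 654, 569, 574 and 581 in arthritic mice 1, 3, 4, 5 and 6, and 392, 342, 281 and 283 in healthy mice 1 to 4. The arthritic mice were tight and all above the healthy mice. The healthy values rest on sums of 28 to 71 signal units, against 1987 to 4403 in arthritic mice. S100a6 averaged 599 ± 35.9 in arthritic and 324 ± 53.0 in healthy mice (SD, n = 5 and 4), with a log2 gap of 0.89 ± 0.17 (SE; limma, adjusted p = 0.0430), of which 0.36 lies above the median of all genes. It was 1 of 6 members against a background of 0.655% of genes called (52 of 7935, with 0.58% higher in arthritic mice), and 1 of 6 with every arthritic mouse above every healthy mouse against 8.65%. At an unadjusted p under 0.05 stood 4 of 6 members, against 21.6% of genes. The plain values overlapped between groups, at 356 to 803 in arthritic and 219 to 501 in healthy mice. The call was lost under 11 of 26 alternatives, among them median-of-ratios scaling (adjusted p = 0.12), the mean signal per column (0.0892), hemoglobin as a covariate (0.136, at a log2 difference of 0.80) and leaving out arthritic mouse 1, 3, 4 or 5 (0.147, 0.138, 0.0856 and 0.0664). Over all 26 alternatives the highest adjusted p was 0.661 (limma).

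S100a11, which binds annexin A1, leaned the same way without passing. TMM-scaled S100a11 in granulocyte columns was 885, 916, 705, 701 and 461 in arthritic mice 1, 3, 4, 5 and 6, and 314, 476, 369 and 183 in healthy mice 1 to 4. Only arthritic mouse 6 fell inside the healthy range, below healthy mouse 2. The healthy values rest on sums of 39 to 57 signal units. The log2 difference was 1.17 ± 0.29 (SE; limma, adjusted p = 0.0862) and passed without healthy mouse 2 (adjusted p = 0.0127). Healthy mouse 2 was the highest healthy mouse for S100a11, so leaving it out widens the gap and is no separate support. That fit called 883 genes against 52. The S100a11 difference missed the threshold under 16 of 26 alternatives. Over all columns S100a11 was 432, 327, 469, 712 and 217 in the arthritic mice and 228, 68.1, 215 and 138 in the healthy mice, which is 1.44 ± 0.40 on the log2 scale (adjusted p = 0.221).

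S100a4 and S100a10 showed no gap. TMM-scaled S100a4 in granulocyte columns was 70.6, 86.1, 101, 60.6 and 244 in arthritic mice 1, 3, 4, 5 and 6, and 160, 85.5, 52.7 and 71.8 in healthy mice 1 to 4. The groups overlapped over most of their range, with arthritic mouse 6 highest and healthy mouse 1 next (log2 difference 0.21 ± 0.42; limma, adjusted p = 0.779). TMM-scaled S100a10, the partner of annexin A2, was 208, 260, 294, 195 and 429 in the arthritic mice and 403, 110, 421 and 287 in the healthy mice. Arthritic mouse 6 was again the highest, close to healthy mice 1 and 3 (log2 difference −0.03 ± 0.39; adjusted p = 0.972). The 8 monocyte markers were highest in arthritic mouse 6 and healthy mouse 1, as S100a4 was. Their summed plain level in granulocyte columns was 6040 in arthritic mouse 6 and 748 to 2188 in the other arthritic mice. In healthy mice 1 to 4 it was 3962, 1867, 1589 and 1463. S100a10 did not follow these markers in the healthy mice, being lowest in mouse 2 and highest in mouse 3. None of the 8 was at 0 in any mouse, and their part in these values was not tested.

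**Figure D2:**
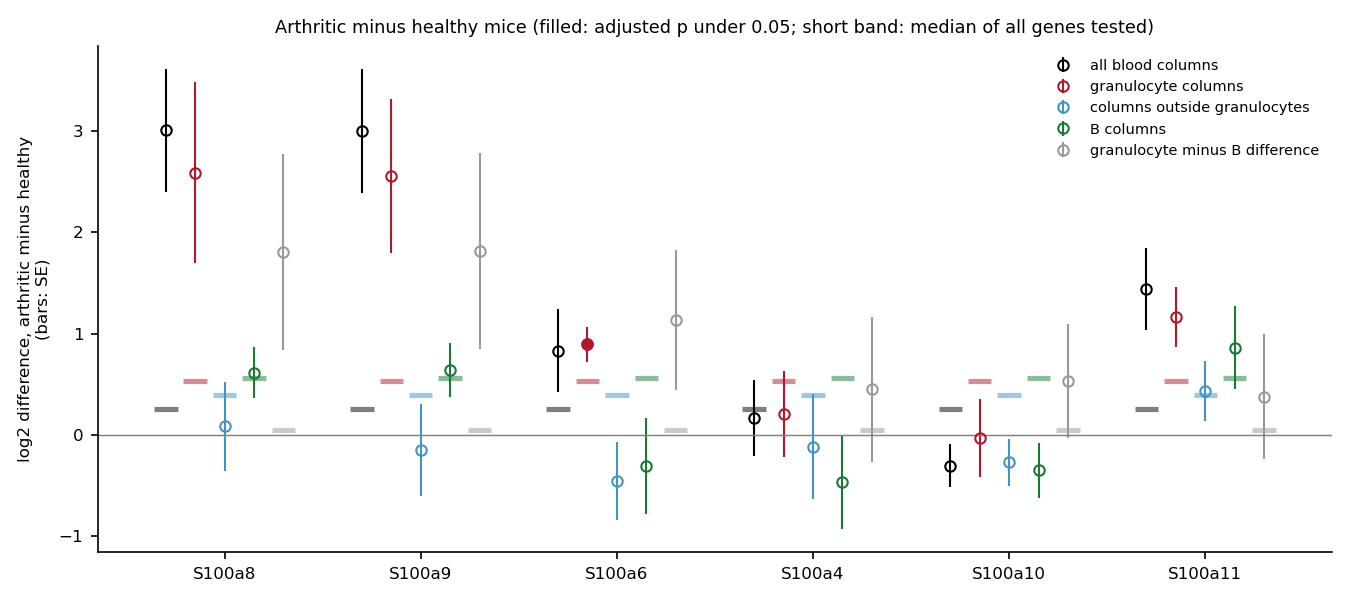
Log2 difference, arthritic minus healthy, with its SE, for the 6 S100 genes in all blood columns, granulocyte columns, columns outside granulocytes, B columns, and the granulocyte difference minus the B difference; filled points have an adjusted p under 0.05 and short bands mark the median of all genes tested. S100a8 and S100a9 stand near 3.00 and 2.59 in the first 2 sets and near 0 outside granulocytes, and the only filled point is S100a6 in granulocyte columns.

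In sums over all columns outside granulocytes the difference in S100a8 and S100a9 was not seen. These sums mix classes of unlike S100a8 level in shares that differ by mouse. Healthy mouse 2 held 111 B and 79 CD4 T columns, while healthy mouse 3 held 14 foxP3 T columns and 1 B column. They therefore do not show whether a difference is present within a class. TMM-scaled S100a8 in these columns was 2117, 2213, 3084, 4853 and 2017 in arthritic mice 1, 3, 4, 5 and 6, and 3369, 935, 4811 and 2742 in healthy mice 1 to 4. The healthy mice spanned nearly the whole arthritic range and reached below it. The log2 difference was 0.08 ± 0.44 for S100a8 and −0.15 ± 0.45 for S100a9 (SE; limma, adjusted p = 0.925 and 0.866), and the sign turned under 6 of 26 alternatives for each. TMM-scaled S100a9 was 680, 729, 1116, 1578 and 727 in the arthritic mice and 1216, 354, 2146 and 1131 in the healthy mice, whose range enclosed the arthritic one. The other members ran between −0.46 for S100a6 and 0.44 for S100a11. Neither these nor any other of the 8763 genes passed (0% called, with 13.6% at an unadjusted p under 0.05), and no member separated the groups, against 3.25% of genes with every arthritic mouse above every healthy mouse. Without healthy mouse 2, 4 genes passed.

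In B columns, which arthritic mice held in numbers of 274, 448, 86, 9 and 348 and healthy mice 1, 2 and 4 in numbers of 9, 111 and 15, no member passed. TMM-scaled S100a8 was 2226, 2911, 2394, 3435 and 2516 in arthritic mice 1, 3, 4, 5 and 6, and 1472, 1387 and 2566 in healthy mice 1, 2 and 4. Healthy mouse 4 lay within the arthritic range and the other 2 below it. The log2 difference was 0.62 ± 0.26 for S100a8 and 0.64 ± 0.27 for S100a9 (SE; limma, adjusted p = 0.519 each), where the median of all genes was 0.56. No gene of 9585 passed (0% called, with 7.06% at an unadjusted p under 0.05, as 2 of the 6 members were), and no member separated the groups, against 3.38% of genes with every arthritic mouse above every healthy mouse. Without healthy mouse 2, 59 genes passed, none of them a member. The difference in granulocyte columns minus that in B columns, over the 5 arthritic and 3 healthy mice with both, was 1.81 ± 0.96 for S100a8, 1.82 ± 0.97 for S100a9 and 1.13 ± 0.69 for S100a6 (SE; limma, adjusted p = 0.583, 0.583 and 0.6246). None of the 6 members and none of 10349 genes passed (0% called, with 9.6% at an unadjusted p under 0.05 and 5.28% with every arthritic mouse above every healthy mouse), so the larger difference in granulocytes was not shown to exceed that in B columns.

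The proportion of S100a8 to S100a9 signal varied little between mice. The plain S100a8 to S100a9 ratio over all columns was 2.33, 2.44, 2.39, 2.46 and 2.45 in arthritic mice 1, 3, 4, 5 and 6, and 2.62, 2.46, 2.12 and 2.45 in healthy mice 1 to 4. The arthritic mice all lay inside the healthy range. The log2 ratio averaged 1.27 ± 0.0337 in arthritic and 1.27 ± 0.129 in healthy mice (SD, n = 5 and 4), a difference of 0.00403 (two-sided exact permutation test, p = 0.968, where 0.0159 is the smallest value that 5 against 4 mice allow). In granulocyte columns the ratio was 2.32 to 2.46 in arthritic and 2.07 to 2.53 in healthy mice (difference of the log2 ratio 0.0289; two-sided exact permutation test, p = 0.746). In columns outside granulocytes the ratio was higher in each of the 5 arthritic mice than in their own granulocyte columns, at 2.76 to 3.11. Among healthy mice it was 2.24 to 2.77, above the granulocyte columns in mice 1, 2 and 3 and just below them in mouse 4.

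The level of each gene by class is a description without a test. In arthritic mice, plain S100a8 had a median over mice of 59591 in granulocyte columns (36908 to 187132), 4951 in common myeloid progenitor columns (3660 to 7483), 3723 in myeloid dendritic columns (2492 to 4078), 2686 in B columns (2152 to 3763), 2156 in foxP3 T columns (1971 to 3712) and 671 in CD4 T columns (454 to 882). Granulocytes stood clear of every other class and CD4 T columns clear below, while the neighbours between them overlapped over mice. In healthy mice the medians were 8754 in granulocyte, 2859 in foxP3 T, 1623 in B and 535 in CD4 T columns, with 4, 2, 3 and 1 mice. S100a9 followed the same order, with a median of 25035 in granulocyte and 245 in CD4 T columns of arthritic mice. Granulocyte over CD4 T columns of the same mouse, S100a9 was 57.2 to 507 times higher in arthritic mice.

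S100a8 signal was present in nearly every column of every class, so presence says little about which cells made it. It was found in 100% of granulocyte, 99.5% of B and 96.7% of CD4 T columns of arthritic mice, and in 100%, 98.5% and 88.9% of those of healthy mice. Median column totals were 12367, 8831 and 8549 in the arthritic and 13644, 8143 and 8257 in the healthy columns of these classes. B columns of arthritic mice held a median of 3.61% of the granulocyte level of the same mouse for S100a8 and 3.42% for S100a9. For the 10 other neutrophil transcripts this share ran between 1.24% for Ltf and 8.01% for Lyz2, with 7 below the S100a8 share, among them Retnlg at 3.15%, and 3 above it, namely Mmp8 at 4.19%, Mmp9 at 7.35% and Lyz2. The share was 17.5% for S100a6 and 17.4% for S100a11, 63.6% for S100a4 and 128% for S100a10. A source in free RNA of granulocytes was not tested, and the S100a8 to S100a9 ratio of B columns was 2.51 to 2.88, above that of granulocyte columns in each arthritic mouse.

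S100a6 and S100a11 were highest in granulocyte columns with myeloid dendritic columns next. In arthritic mice plain S100a6 had a median of 666 in granulocyte, 535 in myeloid dendritic, 185 in foxP3 T, 122 in B, 85.4 in CD4 T and 55.4 in common myeloid progenitor columns. The granulocyte value was above the dendritic value in each of the 4 mice with both, although the ranges overlapped. Plain S100a11 had a median of 637 in granulocyte, 451 in myeloid dendritic, 141 in B, 120 in foxP3 T, 97.7 in CD4 T and 71.8 in common myeloid progenitor columns. Here too each of 4 mice had the higher value in granulocytes, and dendritic columns stood clear of B columns.

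S100a4 and S100a10 had another order, with the highest median in myeloid dendritic columns. Plain S100a4 in arthritic mice had a median of 356 in myeloid dendritic, 91.1 in granulocyte, 67.1 in foxP3 T, 58.0 in B, 48.9 in CD4 T and 14.1 in common myeloid progenitor columns. In none of the 4 mice with both was the granulocyte value above the dendritic one, and the classes from granulocyte to CD4 T overlapped. Plain S100a10 had a median of 636 in myeloid dendritic, 453 in foxP3 T, 379 in CD4 T, 299.99 in B, 264 in granulocyte and 174 in common myeloid progenitor columns. In 2 of the 4 mice with both, foxP3 T columns were above dendritic columns. Every pair of neighbours in that order overlapped over mice, and foxP3 T columns spread most, between 187 in arthritic mouse 5 and 1143 in arthritic mouse 1.

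**Figure D3:**
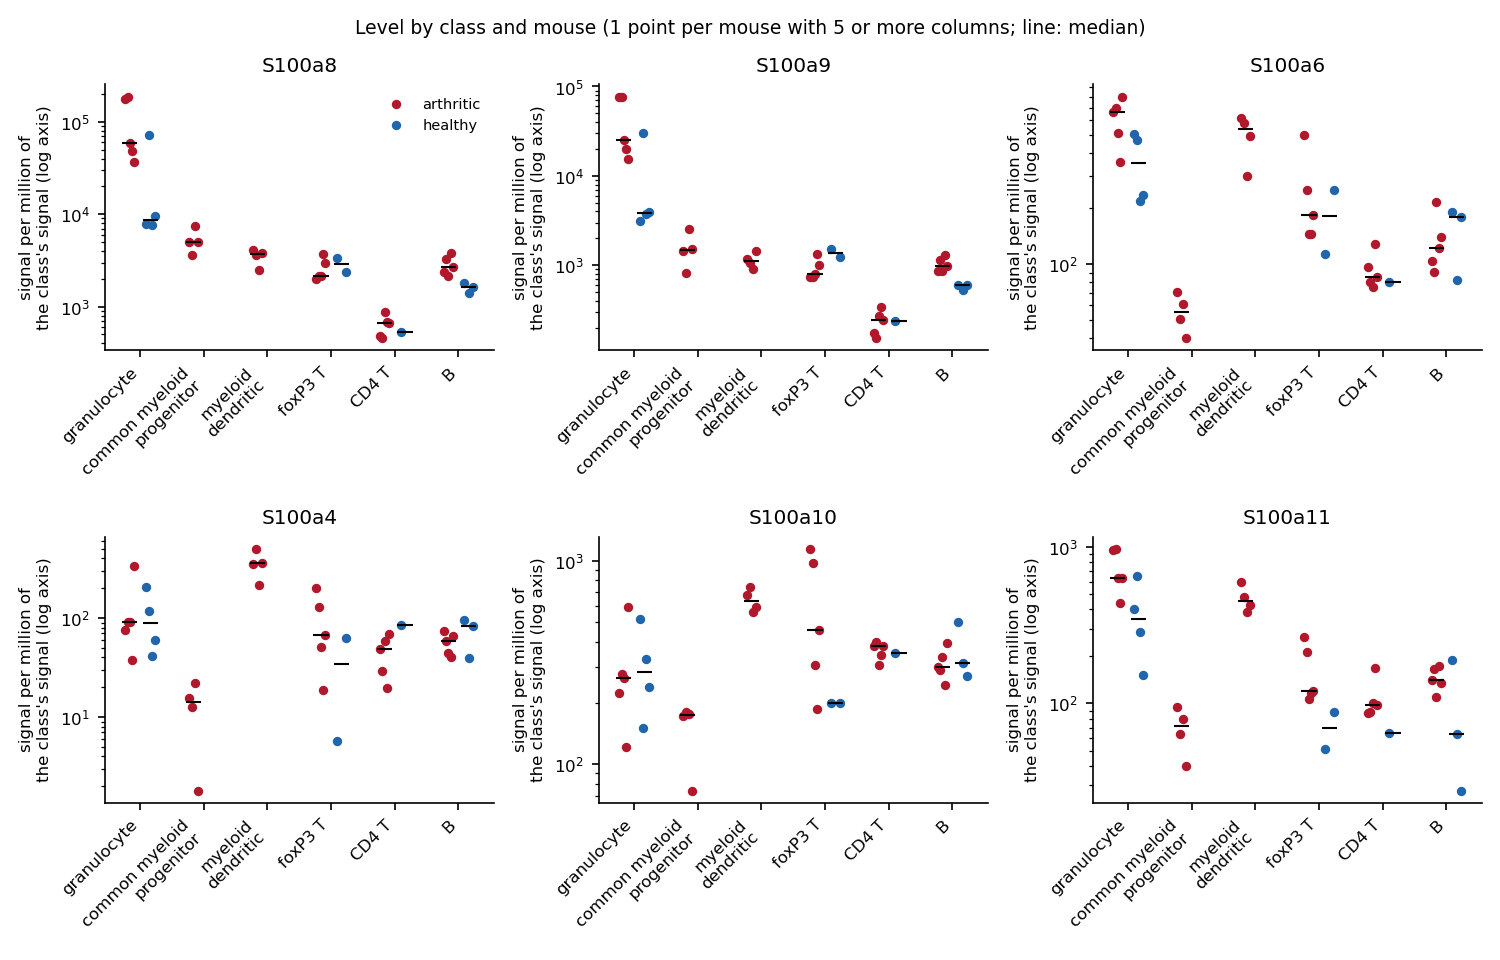
Plain SPM (log axis) of each S100 gene by class, 1 point per mouse with 5 or more columns of the class, arthritic left of healthy, with a line at the median. S100a8 and S100a9 drop from 59591 and 25035 in granulocyte columns of arthritic mice to 671 and 245 in CD4 T columns, S100a6 and S100a11 are shared between granulocyte and myeloid dendritic columns, and S100a4 and S100a10 have their highest median in myeloid dendritic columns.

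Among granulocyte columns the S100a8 level was uneven. The median column had 209611, 236395, 28128, 40109 and 5646 SPM in arthritic mice 1, 3, 4, 5 and 6, and 7795, 55217, 6716 and 7744 in healthy mice 1 to 4. The median column of arthritic mouse 6 was below that of every healthy mouse, although its sum over columns was above 3 of them. Columns at 100000 or more made up 71.8%, 73.1%, 21.1%, 8.97% and 12.0% of granulocyte columns in the arthritic mice, against 1 of 5 columns in healthy mouse 2 and 0 of 13, 11 and 20 in healthy mice 1, 3 and 4. A count of 0 allows up to 3 columns, which is 23.1% of 13, 27.3% of 11 and 15.0% of 20, for counting error only. The threshold of 100000 was chosen after the values were seen, and identical columns are counted each time.

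The other members split by this level. In the columns at 100000 or more of S100a8, plain S100a4 was 15.99, 14.4, 23.1, 21.6 and 44.2 in arthritic mice 1, 3, 4, 5 and 6, against 238, 313, 107, 38.8 and 380 in their remaining granulocyte columns. S100a4 was lower in the high columns of each mouse. S100a10 was 74.3, 75.4, 83.03, 71.5 and 158 in the high columns and 628, 856, 306, 125 and 656 in the others, lower in the high columns of each mouse as well. S100a11 went the other way, at 1101, 1117, 1339, 966 and 1407 in the high columns and 570, 547, 473, 391 and 523 in the others. S100a6 was mixed, at 655, 671, 957, 624 and 1107 in the high columns and 697, 756, 409, 334 and 758 in the others, higher in 3 of 5 mice. Across the granulocyte columns of each arthritic mouse (249 to 489 columns, which share a library and in part their values), Pearson's r on the log2 scale was 0.94 to 0.98 between S100a8 and S100a9, 0.40 to 0.57 between S100a8 and S100a11, −0.81 to −0.10 between S100a8 and S100a4 and −0.69 to −0.08 between S100a8 and S100a10. Between S100a4 and S100a10 it was 0.29 to 0.68. Over the same columns r with the summed neutrophil markers was 0.91 to 0.98 for S100a8, and r with the summed monocyte markers was 0.40 to 0.82 for S100a4, 0.47 to 0.68 for S100a10 and −0.93 to −0.01 for S100a8. These r values describe columns and carry no p.

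**Figure D4:**
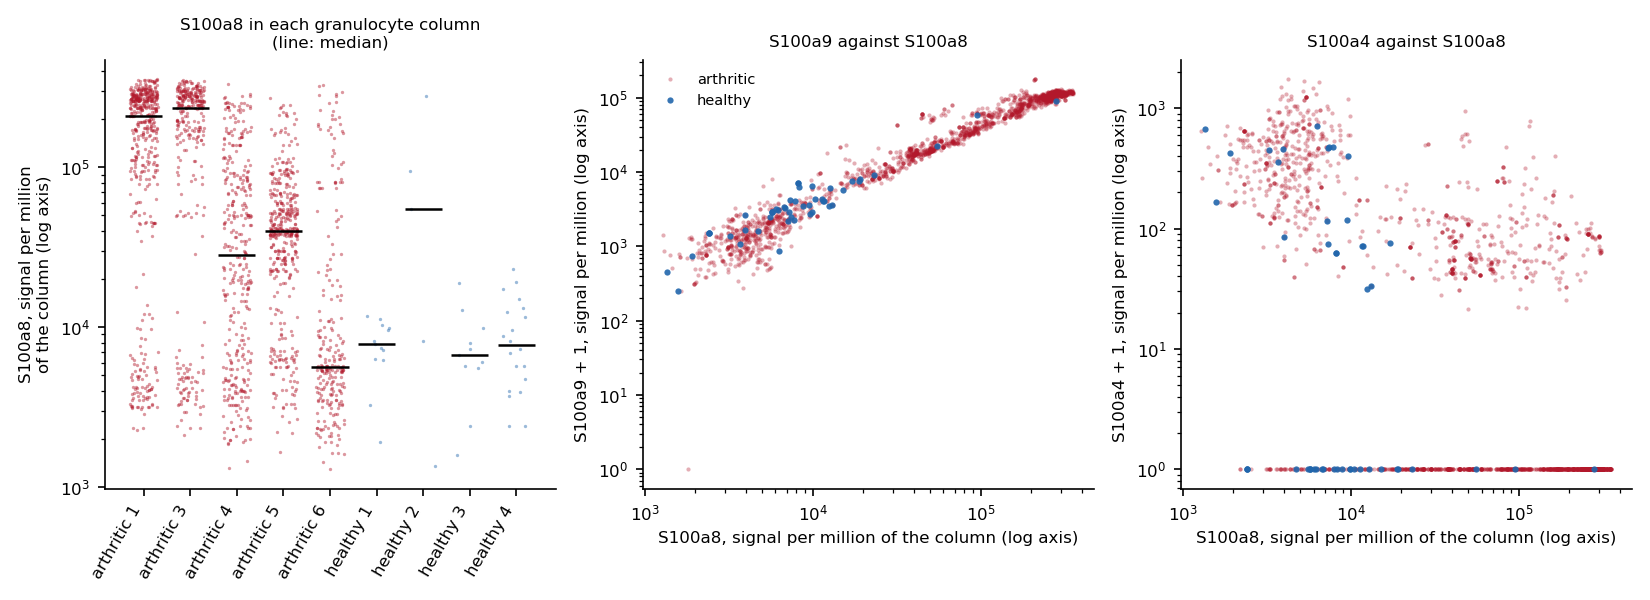
Left, S100a8 in each granulocyte column by mouse (SPM of the column, log axis), arthritic mice left of healthy mice, with a line at the median, which is 236395 in arthritic mouse 3 and 5646 in arthritic mouse 6. Middle and right, S100a9 and S100a4 plus 1 against S100a8 in the same columns: S100a9 follows S100a8 along 1 line in both groups, and S100a4 is highest in columns with little S100a8.

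The genes whose level over 38 mouse-by-class profiles was most like each member (Pearson's r on log2 values, 5379 genes compared, profiles of a mouse sharing its library) fell into separate sets. For S100a8 they were Camp (0.98), Ngp (0.98), Lcn2 (0.97), Ltf (0.95) and Retnlg (0.94), all transcripts of neutrophil granule or secreted proteins, and the same 5 followed S100a9 (0.94 to 0.98). For S100a6 they were Tyrobp (0.90), a signalling adaptor of myeloid cells, Vim (0.88), Lgals3 (0.88), Serpinb10 (0.88) and Lyz1 (0.86). For S100a11 they were Cyba (0.91) and Cybb (0.87), the chains of cytochrome b558 of the phagocyte oxidase, with Lmo4 (0.90), Lyz2 (0.86) and Myo1f (0.86). For S100a4 they were Ifi27l2a (0.88), Klf4 (0.87), Rgs2 (0.87), Sat1 (0.86) and Prkx (0.85), and for S100a10 H2-D1 (0.87), Mndal (0.84), Fyb (0.83), Ifi203 (0.82) and Cd48 (0.82). Between members, r was 0.99 for S100a8 and S100a9, 0.86 for S100a6 and S100a11, 0.76 for S100a4 and S100a10, and −0.31 for S100a8 and S100a10.

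Of the genes around the pathway, the other neutrophil transcripts were the only list with a call. All 10 were tested over all columns and in granulocyte columns, with median log2 differences of 2.97 and 2.52 against 0.26 and 0.53 over all genes, and each of the 10 was positive in both, as were 69.3% and 77.3% of all genes. Over all columns 1 rose: Cd177, a neutrophil surface protein, averaged 203 ± 110 in arthritic and 11.5 ± 5.46 in healthy mice (TMM-scaled, SD, n = 5 and 4; log2 difference 3.85 ± 0.55, limma adjusted p = 0.0428). Its healthy sums were 2 to 15 signal units, and the call was lost under median-of-ratios scaling, no filter, array weights, without identical columns, without columns shared with the joint table and without any 1 mouse other than arthritic mouse 6. In granulocyte columns 2 rose, Cd177 (3.58 ± 0.70, limma adjusted p = 0.0460) and Retnlg, a secreted resistin-like protein (2.23 ± 0.35, adjusted p = 0.0298). Their healthy sums there were 1 to 10 and 44 to 105 signal units, and both calls were lost with hemoglobin as a covariate and without arthritic mouse 1, 3, 4 or 5. Ltf, lactotransferrin, stood at 3.77 ± 0.61 and Lcn2, lipocalin 2, at 3.53 ± 0.60 over all columns without passing (limma, adjusted p = 0.0616 and 0.0791), as did Mmp9, a matrix metalloproteinase, at 2.31 ± 0.42 (adjusted p = 0.0861). Outside granulocytes 9 were tested with a median of 0.04, and none passed.

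Receptors of the alarmins and their adaptors did not pass in any comparison. Over all columns 8 of 10 were tested, all 8 positive with a median log2 difference of 0.44, led by Tlr4 (0.77 ± 0.64; limma, adjusted p = 0.552) and its co-receptor Cd14 (0.75 ± 0.59; adjusted p = 0.530). The scavenger receptor Cd36 was at 0.56 ± 0.53 (limma, adjusted p = 0.599). In granulocyte columns Tlr4 was 18.4 ± 3.80 in arthritic and 7.24 ± 5.17 in healthy mice (TMM-scaled, SD, n = 5 and 4), where the healthy values rest on sums of 0 to 2 signal units and allow no fold. Basigin (Bsg), another receptor of S100a9, was at −0.15 ± 0.42 there. Of the TLR4 target genes 8 of 10 were tested over all columns, all 8 positive, as were 69.3% of all genes, with a median of 0.79 and none called, among them the neutrophil chemokine Cxcl2 (1.80 ± 0.45; limma, adjusted p = 0.185) and the NF-kB regulator Nfkbiz (1.17 ± 0.28; adjusted p = 0.1499), each with no overlap between groups. The chemokine Ccl3 was at 1.67 ± 0.46, without overlap, and the cytokine Tnf at 1.204 ± 0.41, with overlap (limma, adjusted p = 0.219 and 0.286), on healthy sums of 1 to 18 and 1 to 24 signal units. Of all genes tested over all columns, 3.64% had every arthritic mouse above every healthy mouse. The genes named here had the smallest p of their list, so their lack of overlap is no separate support.

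Binding partners and myeloid transcription factors had no call either. Anxa1, annexin A1 and the partner of S100a11, was 913 ± 457 in arthritic and 140 ± 52.6 in healthy mice over all columns (TMM-scaled, SD, n = 5 and 4), with no overlap (log2 difference 2.55 ± 0.50; limma, adjusted p = 0.0970). Anxa2, the partner of S100a10, stood at 0.55 ± 0.42 (adjusted p = 0.522), and Ahnak, a large scaffold protein bound by S100a10 and annexin A2, at −0.65 ± 0.34 (adjusted p = 0.404). Tpm3, a tropomyosin, was at 0.41 ± 0.19 (limma, adjusted p = 0.369). The median over the 8 binding partners was 0.22, near the 0.26 of all genes. Over all columns 3.64% of all genes had every arthritic mouse above every healthy mouse, as Anxa1 and Stat3 did. Among the transcription factors, Cebpe, needed for late granulocyte maturation, stood at 3.16 ± 0.71 (adjusted p = 0.127) and Cebpd at 1.88 ± 0.45 (adjusted p = 0.167), while Hif1a was at −0.27 ± 0.18 (adjusted p = 0.480). Stat3 was 47.9 ± 4.82 in arthritic and 26.4 ± 12.2 in healthy mice (TMM-scaled, SD, n = 5 and 4), without overlap (0.94 ± 0.30; limma, adjusted p = 0.266). Of a list of other S100 genes and S100pbp, which encodes an S100P-binding protein and is no S100 gene, 7 of 11 were in the table and 3 were tested over all columns. These were S100a1 (1.08 ± 0.52), S100a13 (0.20 ± 0.18) and S100pbp (0.65 ± 0.80), none called.

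In the joint table the 6 genes were read as pooled plain levels by class, without replicates or a test. Of the 8346 joint columns used, 1245 were identical to a blood column, 968 of them among the 6487 granulocyte columns. S100a8 was 99632 SPM in joint granulocyte columns, against 101933 in pooled blood granulocyte columns, and S100a9 was 41791 against 42856. Without the shared columns the joint values were 100699 and 41927. S100a6 was 423 in joint against 554 in blood granulocytes, S100a4 59.3 against 94.2, S100a10 214 against 245, and S100a11 609 against 699. Each of these 4 was lower in the joint, while S100a8 and S100a9 were close in both tables. The pools are unlike, so neither reading is a comparison of tissues. By name 6190 of the joint columns used were Sick and 2156 Healthy. The blood granulocyte pool holds 1856 arthritic and 49 healthy columns, and its arthritic mice ran from 36908 to 187132 for S100a8.

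The joint held 66 macrophage and 53 osteoblast columns, classes with 2 and 1 columns in blood. Macrophage columns carried 18790 SPM of the 8 monocyte markers and 7771 of the 7 macrophage markers, and osteoblast columns 32341 of the 7 osteoblast and 102785 of the 6 fibroblast markers. S100a4 reached 1167 and S100a10 1821 in macrophage columns, the highest of the 6 joint classes. S100a6 reached 2102 in osteoblast and 1677 in macrophage columns, above the 423 of granulocytes. S100a11 was 696 in macrophage, 609 in granulocyte and 544 in osteoblast columns. S100a8 was 12282 in osteoblast and 8398 in macrophage columns, where the neutrophil markers summed to 4593 and 2881. The S100a8 to S100a9 ratio was 2.38 in granulocyte, 2.33 in osteoblast and 3.19 in macrophage columns of the joint. Without the shared columns S100a8 was 12494 in osteoblast and 8592 in macrophage columns and S100a4 1214 in macrophage columns. S100a8 in foxP3 T columns was 5546 in the joint (5723 without shared columns) against 2494 in blood. In B columns it was 2677 in the joint against 2694 in blood, but the joint value was 1904 without the 29 of 63 joint B columns that were identical to blood columns.

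**Figure D5:**
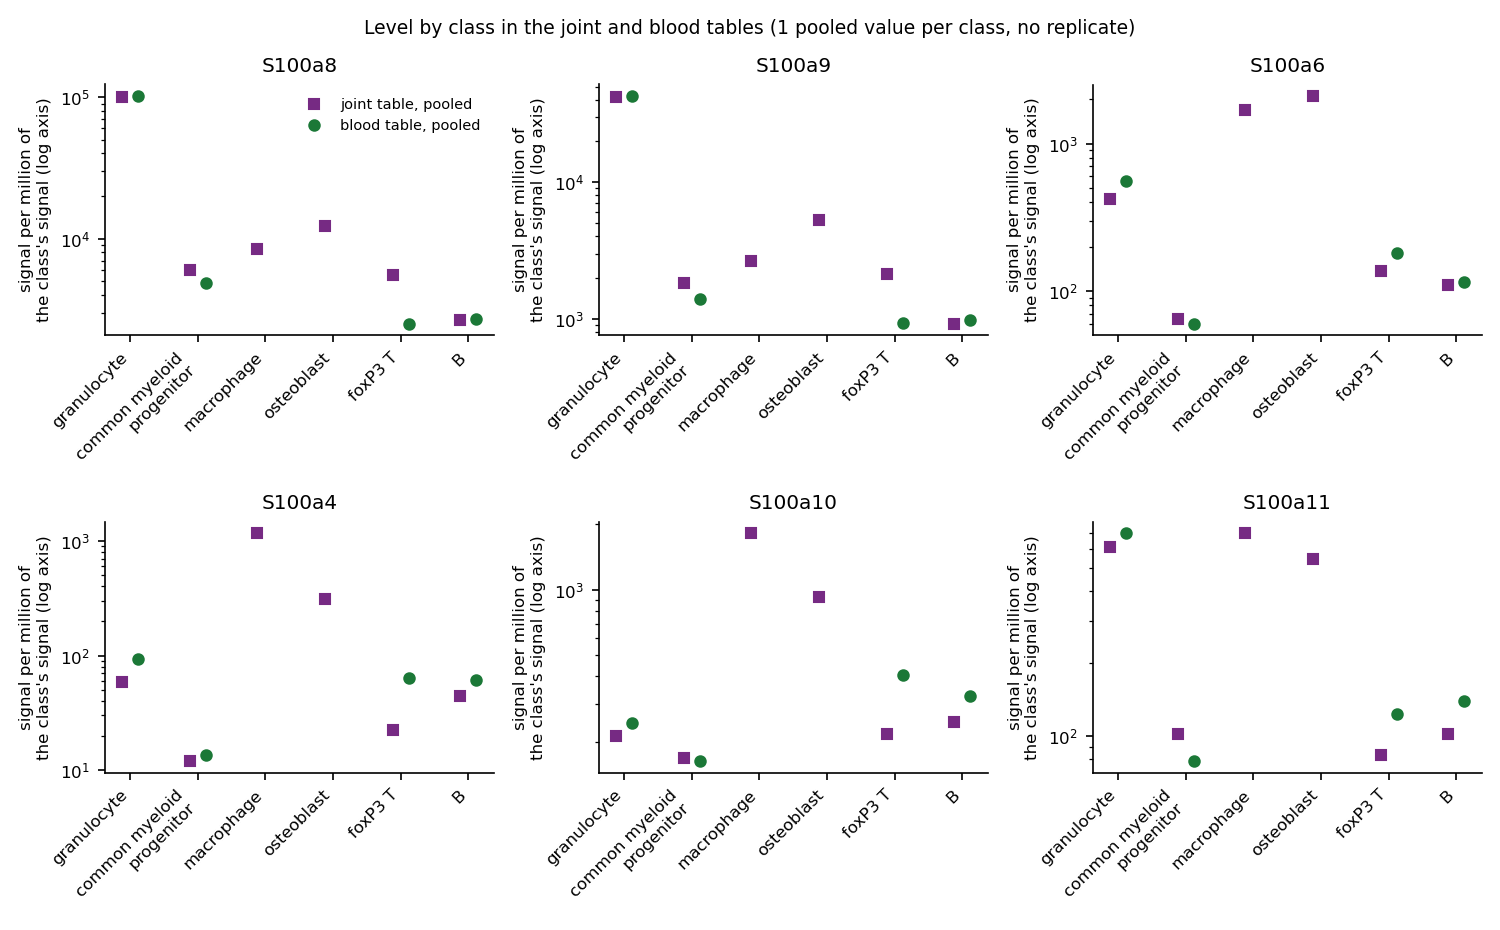
Plain SPM (log axis) of each S100 gene by class in the joint table (squares, left) and the blood table (circles, right), each 1 pooled value with no replicate; blood has no value for macrophage and osteoblast columns. S100a8 and S100a9 in granulocytes are close between the unlike pools (99632 and 101933 for S100a8), and S100a6, S100a4 and S100a10 reach 1677, 1167 and 1821 in joint macrophage columns.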

How the data were processed

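Signal was deposited by the authors as whole-number sums per gene and barcode column. Per the labels' protocols, Seq-Well libraries were extracted by the Drop-seq core protocol against GRCm38.p5; the sources used here do not give the aligner version, the cell filter or the naming of classes. Because many columns are identical, signal was not treated as counts. The S100 genes and the gene lists were chosen with earlier results of these data known.

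Signal was summed per mouse over the columns of a set (at least 5), scaled by TMM (trims of 30% and 5%) to SPM, filtered at 10 or more in as many mice as the smaller group has, and tested as log2(value + 1) with limma 3.58.1 in R 4.3.3 (trend, Benjamini-Hochberg over all genes, threshold 0.05). The pseudocount understates changes of low genes. The difference between granulocyte and B columns was fitted without trend. Code was tested on simulated data. Ratios were compared with a two-sided exact permutation test. Nothing says whether mice were handled separately, so p-values measure the spread between samples. From each list, genes past the threshold were named, and otherwise up to 4 with the smallest p over all columns. Likeness used profiles of at least 5 columns and genes with a mean of at least 20 SPM. Healthy granulocyte sums hold 59991 to 301431 signal units. Of the joint columns 77 were not used, and Sick or Healthy in their names was not used. Positions are from GENCODE M21 and promoters from RefSeq (GRCm38.p6, 5 of 6 genes matched). Leaving out columns shared between the tables was added after seeing the data.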

Additional observations from a re-analysis of the deposited data

How the results depend on the processing

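Every S100 gene's log2 difference and the number of genes called were recomputed under 24 to 27 alternatives per comparison. Some alternatives also left mice out, since a mouse needs enough columns: in granulocyte columns 5 arthritic and 3 healthy mice were left without identical columns, without columns shared with the joint table and with a minimum of 10 columns, the last being the same fit as without healthy mouse 2. In B columns 5 and 2 were left without identical columns, and 4 and 2 with a minimum of 10. S100a8, S100a9, S100a6 and S100a11 were higher in arthritic mice under each alternative over all columns and in granulocyte columns, with S100a8 between 2.45 and 3.51 over all columns and between 2.20 and 3.80 in granulocyte columns. The number of genes called depended on most choices, and the cause was not tested.

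Over all columns 4 genes were called, against 19 with scaling by total signal alone, 31 with the mean signal per column, 10 without hemoglobin genes, 0 with no filter, 2 with a filter of 50, 15 with no trend, 0 with array weights, 2 without identical columns, 73 with hemoglobin as a covariate, 9 with the granulocyte share as a covariate, 8 with thinned columns, 0 without columns shared with the joint table, and 0 to 64 with 1 mouse left out. The split of calls was 1 higher and 3 lower, against 19 higher and 0 lower with total signal alone and 28 higher and 3 lower with the mean signal per column.

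In granulocyte columns 52 genes were called, against 5 with median-of-ratios scaling, 2 with total signal alone, 282 without hemoglobin genes, 2801 with no filter, 89 with a filter of 50, 216 with a pseudocount of 10, 82 with no trend, 283 with array weights, 482 without identical columns, 113 with the mean over columns, 883 with a minimum of 10 columns, 0 with hemoglobin as a covariate, 4 with thinned columns, 1273 without columns shared with the joint table, and 0 to 883 with 1 mouse left out. The split of calls was 46 higher and 6 lower, against 2 higher and 3 lower with median-of-ratios scaling and 1 higher and 1 lower with total signal alone. The median log2 difference of all genes there was 0.53, against 0.37 with median-of-ratios scaling, 0.45 with total signal alone and 0.09 with the mean signal per column.

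With 1 mouse left out, 0 to 4 genes were called outside granulocytes, 0 to 59 in B columns and 0 to 240 in the difference between granulocyte and B columns. That difference gave 18 calls with no filter, 1324 with array weights, 1286 without identical columns (5 arthritic mice and 1 healthy mouse), 311 without columns shared with the joint table (5 and 2 mice) and 6213 with a minimum of 10 columns (4 and 1). A lone healthy mouse is assumed to vary like the others, so the counts with 1 healthy mouse carry no weight.

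Signs turned only for differences that did not pass. With array weights S100a4 was −0.25 over all columns, −0.14 in granulocyte columns and −0.44 in the difference between granulocyte and B columns, where S100a10 was −0.046, and S100a9 outside granulocytes was 0.11. With thinned columns S100a4 was −0.57 in granulocyte columns, 0.35 in B columns and −1.005 in the difference, S100a11 was −0.060 in the difference and S100a8 −0.032 outside granulocytes. S100a10 in granulocyte columns was 0.052 without hemoglobin genes, 0.18 with the mean over columns and 0.021 with hemoglobin as a covariate, under which S100a4 was −0.092 there, S100a9 outside granulocytes 0.27 and S100a6 in B columns 0.24. Outside granulocytes S100a8 was −0.027 with median-of-ratios scaling and −0.26 without identical columns, where S100a4 was 0.083. S100a9 there was 0.071 with total signal alone, 0.19 with the mean signal per column and 0.26 without columns shared with the joint table, S100a4 was 0.094 and 0.014 under the first 2 of these, and S100a10 was 0.080 with the mean signal per column. Without identical columns S100a6 in B columns was 0.14 and S100a10 in the difference −0.27. S100a10 in B columns was 0.0013 with a minimum of 10 columns, and S100a11 in the difference −0.0040 with total signal alone. The S100a8 to S100a9 log2 ratio in granulocyte columns differed by −0.0016 without identical columns.

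With 1 mouse left out, S100a4 ran between −0.14 and 0.47 over all columns, −0.010 and 0.52 in granulocyte columns, −0.61 and 0.23 outside granulocytes, −0.92 and 0.015 in B columns and −0.17 and 1.00 in the difference. S100a10 ran between −0.25 and 0.33 in granulocyte columns, S100a8 between −0.40 and 0.46 and S100a9 between −0.65 and 0.29 outside granulocytes, S100a6 between −0.77 and 0.21 in B columns and S100a11 between −0.28 and 1.05 in the difference. The ratio differed by −0.056 to 0.046 over all columns and −0.033 to 0.065 in granulocyte columns.

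Mouse numbers 1, 3 and 4 occur in both groups but name different animals, and the correlation of their deviations was −0.004, −0.29 and 0.30. Mice of unlike number ran from −0.51 to 0.53, so these few values cannot decide whether a shared number pairs mice. With a replicate block on the 3 same-numbered pairs, 35 genes were called over all columns, 82 in granulocyte columns and 26 in B columns. Under the block S100a4 was −0.13 over all columns, S100a8 −0.54 outside granulocytes and S100a10 −0.10 in the difference.

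The number of mice limits precision, and healthy granulocyte values rest on 5 to 20 columns per mouse. Of these 49 columns, 9 had a twin in an arthritic mouse, so the groups are not fully separate there. Where S100a4 in healthy granulocyte columns rests on sums of 6 to 29 signal units, differences could not be detected reliably. Whether identical columns are 1 cell written more than once was not tested.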
